A study of Homo sapiens with 8 samples.

Results

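Mitochondrial fusion and fission genes were taken from the count table as the rows of 8 named symbols, OPA1, MFN1, MFN2, OMA1, YME1L1, DNM1L, FIS1 and MFF, out of 15982 genes in all. All 8 had a row and all 8 passed the filter on low counts, beside 15905 genes tested. Libraries of total RNA came from 143BTK- cells, an established human osteosarcoma line without thymidine kinase. One group received the hsa-miR-101-3p mimic, a synthetic double-stranded RNA, the other a negative control mimic, with 4 libraries each from what the labels call separate transfection experiments. Cells of both groups grew without glucose, on 10 mM galactose with 5% dialysed serum, GlutaMAX and uridine, were given 80 pmol of mimic at the start and again at 48 h, and were harvested at 120 h. The experiment therefore covers 1 cell line, 1 medium and 1 time.

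Mitochondria join and divide continuously. Mitofusins MFN1 and MFN2 fuse the outer membranes of neighbouring mitochondria, and OPA1 fuses the inner membranes. The inner-membrane proteases OMA1 and YME1L1 cut OPA1 into short forms, OMA1 mainly when the organelle is stressed. Division is carried out by DRP1, the dynamin-like GTPase encoded by DNM1L, which assembles on the outer membrane at receptors such as MFF. FIS1 sits in the same membrane and has been described as a further anchor. Cells fed galactose in place of glucose rely on respiration for energy, and in many cell lines their mitochondria become longer and more connected.

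A mimic acts through its seed, bases 2 to 8 of the microRNA, which pairs with complementary words in 3′ UTRs. The mature hsa-miR-101-3p sequence (RefSeq, GRCh38.p14, chr9:4850345-4850365, plus strand, locus MIR101-2) is printed first with the seed in capitals. It is followed by the match in DNM1L, the single match among the 8 genes, and by matches in called genes of neighbouring functions described further on. These called genes were picked because they fell in these same data and hold a match. Falls larger than that of DNM1L therefore follow from the choice. Listed genes with a match that were not called, such as KIF5B with an 8mer and SPIRE1, are not printed. Each of the printed called genes holds 2 matches, of which 1 is shown. Capitals in the mRNA windows mark the word that matches the seed; windows are from GENCODE 29 transcripts on GRCh38.
hsa-miR-101-3p: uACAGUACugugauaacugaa
DNM1L (8mer, chr12:32744307-32744336, plus strand): ttaaaaccagtGTACTGTAtgtatgcattg
MIGA1 (8mer, chr1:77875197-77875226, plus strand): aatgagcaactGTACTGTAtttatacagaa
PRKAA1 (8mer, chr5:40759983-40760012, minus strand): ttgccagaaatGTACTGTAtacatagtttt
TIMM17A (8mer, chr1:201970522-201970551, plus strand): aagccatgtggGTACTGTAaacacacgttt
ATL3 (7mer-m8, chr11:63624227-63624256, minus strand): atttgttaaaaGTACTGTctgctagaccct

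The words searched, on the sense strand of the longest annotated 3′ UTR, were GTACTGTA (8mer), GTACTGT without the final A (7mer-m8) and TACTGTA outside an 8mer (7mer-A1). DNM1L had 1 match, an 8mer at position 908 of a 3′ UTR of 2240 bases. OPA1, with a 3′ UTR of 3223 bases, MFN1 with 2872 and MFN2 with 1949 had none, nor had YME1L1, OMA1, MFF or FIS1. Among 12444 tested genes with an annotated 3′ UTR, 23.8% held a match and 4.6% an 8mer. A match describes letters and is not evidence of binding, and an absent match says only that these words are not in that 3′ UTR.

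None of the 8 genes was called different between miR-101 and control cells. At an edgeR adjusted p under 0.05 the count was 0 of 8, against 6.62% of all tested genes. At an unadjusted p under 0.05 it was also 0, against 22.3% of all genes, and DESeq2 and limma-voom called 0 as well, against 10.7% and 6.66% of all genes. With the replicate number as a block or the replicate set (1 and 2, or 3 and 4) as a term no member was called either, where all genes gave 10.5% and 11.7%. Values below are CPM (counts per 1000000 of the TMM-adjusted library total), and each log2 fold change, miR-101 over negative control, stands with its standard error after ±. The fitted ratios ran from 0.889 (FIS1) to 1.16 (MFN2), and their 95% intervals together spanned 0.747 to 1.49. The sign of the log2 fold change was positive in 4 genes and negative in 4, with a median of -0.02 for the 8 genes and of -0.005 for all tested genes. The members' median lay between -0.061 and 0.0226 in fits without 1 library, being positive only without control replicate 3, and was 0.0308 in replicates 1 and 2 alone. The median size of the change, regardless of sign, was 0.12 for the 8 genes and 0.20 for all tested genes. In bulk RNA a lower level in every cell and fewer cells with the transcript cannot be told apart.

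Libraries differed in ways that touch these genes. Totals ran from 17603054 to 20160267 counts. Replicates 1 and 2 lay close together in each group (chi-square per gene of 3.78 in miR-101 and 4.63 in control libraries, where sampling noise alone gives about 1), and every other pair within a group had at least 14.3. The labels call them separate transfections, and the files do not settle whether they are as independent as the others; with their counts summed to 1 sample per group, the genes called fell to 173, against 1053 with all libraries. Replicates 1 and 2 alone called 32.4% of all tested genes, replicates 3 and 4 alone 0.0379%. EZH2, the Polycomb methyltransferase and a described miR-101 target, stood at 28.1 CPM in miR-101 and at 45.7 CPM in control libraries (log2 fold change -0.70, edgeR adjusted p = 0.00561). Of the 10 mesenchymal and osteoblast markers, 5 were measured, among them RUNX2, SPP1 and VIM, with summed levels of 975.9 to 2134 CPM in miR-101 and 969.2 to 1511 CPM in control libraries. SPARC and VIM make up most of these sums. VIM averaged 580.9 CPM in miR-101 and 668.5 CPM in control libraries (log2 fold change -0.20, edgeR adjusted p = 0.596). SPARC averaged 942.1 and 564 CPM in the same order (0.74, edgeR adjusted p = 0.396). It had 1433 and 1442 CPM in miR-101 replicates 1 and 2, against 530.1 and 362.4 CPM in miR-101 replicates 3 and 4. RUNX2, an osteoblast transcription factor, was higher at 25.4 CPM in miR-101 and 13.4 CPM in control libraries (log2 fold change 0.93, edgeR adjusted p = 0.0269). SPP1 averaged 122.2 CPM in miR-101 and 28.7 CPM in control libraries, COL1A1 13.5 and 6.29 CPM in the same order (edgeR adjusted p = 0.0867 and 0.0619). The part of these marker differences in the results on the fusion and fission genes was not tested. ALPL, SP7, BGLAP, IBSP and COL1A2 were not analysed here. EPCAM, the measured epithelial marker, stood at 9.29 to 17.0 CPM in miR-101 and 5.11 to 10.04 CPM in control libraries (log2 fold change 0.72, edgeR adjusted p = 0.137). PECAM1, the measured endothelial marker, stood at 0.867 to 2.04 CPM in miR-101 and 0.86 to 3.96 CPM in control libraries.

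**Figure D1:**
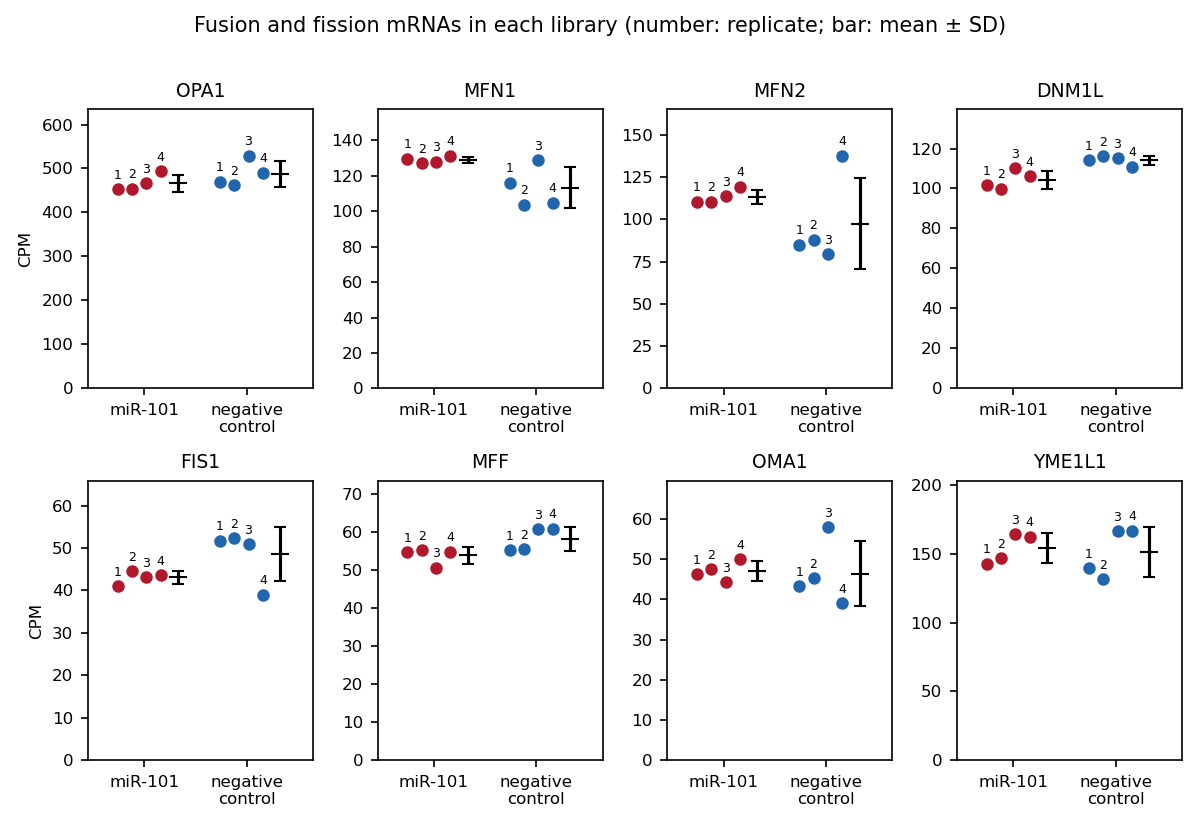
CPM of the 8 fusion and fission genes (y axis, from 0) in each miR-101 library and each negative control library; numbers mark replicates and bars give the mean ± SD (n = 4). DNM1L and MFF are the genes whose groups do not overlap, and control replicate 4 is the highest MFN2 and the lowest FIS1 value.

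The mitofusins had the largest positive fold changes of the set. MFN1, on chromosome 3 (GRCh38, 179347692 to 179394931), had 129.7, 127.1, 127.9 and 131.3 CPM in miR-101 replicates 1 to 4, against 116.0, 103.6, 128.7 and 104.8 CPM in the controls. The miR-101 libraries lay within a narrow band, and control replicate 3 reached into it. Means were 129.0 ± 1.85 CPM in miR-101 and 113.3 ± 11.7 CPM in control libraries (SD, n = 4 each), with a log2 fold change of 0.19 ± 0.0979 (edgeR adjusted p = 0.29, unadjusted p = 0.0818, the smallest of the 8).

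MFN2, on chromosome 1 (11980181 to 12013514), had 110.6, 110.5, 113.8 and 119.3 CPM with miR-101, against 85.0, 88.0, 79.5 and 137.7 CPM in the controls. Control replicates 1 to 3 all lay below the miR-101 libraries and control replicate 4 lay above them. With all libraries the log2 fold change was 0.22 ± 0.162 (edgeR adjusted p = 0.463). Without control replicate 4 it was 0.43 ± 0.0852 with an edgeR adjusted p of 0.0131, so that this library decides whether MFN2 is called (8.91% of all genes were called in that fit). Over the 19 alternatives run for MFN2 the adjusted p ranged from 0.000169 to 0.968.

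OPA1, on chromosome 3 (193593144 to 193697823), had 452.4, 453.8, 466.2 and 493.3 CPM with miR-101, against 469.5, 462.6, 528.9 and 490.5 CPM in the controls. The groups overlapped, and replicates 3 and 4 tended to be the higher ones in both. Its log2 fold change was -0.06 ± 0.0911 (edgeR adjusted p = 0.722; -0.03 without control replicate 3 and -0.10 without miR-101 replicate 4), and its 95% interval in ratio, 0.832 to 1.10, was among the narrowest of the 8. An antisense gene, OPA1-AS1, shares 2.3% of its exon bases, and whether counting used the strand is not given in the sources used here. The count table sums all OPA1 splice forms, and the cut forms of the protein leave no trace in it.

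OMA1 and YME1L1, which cut OPA1, had the fold changes nearest to 0. OMA1, on chromosome 1 (58415384 to 58546802), had 46.3, 47.5, 44.3 and 50.1 CPM with miR-101, against 43.3, 45.2, 57.9 and 39.1 CPM in the controls. Its control libraries lay on both sides of the miR-101 libraries. Its log2 fold change was 0.02 ± 0.127 (edgeR adjusted p = 0.945), and DAB1, on the same strand, shares 6.91% of its exon bases. YME1L1, on chromosome 10 (27110112 to 27155266), had 143.0, 146.9, 164.5 and 162.6 CPM with miR-101, against 139.7, 131.7, 166.4 and 166.9 CPM in the controls. It followed the replicate number more than the mimic, since replicates 3 and 4 averaged 163.6 CPM in miR-101 and 166.6 CPM in control libraries, and replicates 1 and 2 averaged 144.9 and 135.7 CPM in the same order. Its log2 fold change was 0.03 ± 0.111 (edgeR adjusted p = 0.909), and MASTL on the other strand shares 6.04% of its exon bases.

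The genes of division had negative fold changes, none past the threshold. DNM1L, on chromosome 12 (32679200 to 32745650), had 101.6, 99.95, 110.0 and 106.0 CPM with miR-101, against 114.1, 116.1, 115.2 and 110.8 CPM in the controls. The groups did not overlap, by a margin of less than 1 CPM between miR-101 replicate 3 and control replicate 4. Means were 104.4 ± 4.51 CPM in miR-101 and 114.1 ± 2.33 CPM in control libraries (SD, n = 4 each), with a log2 fold change of -0.13 ± 0.0848 (edgeR adjusted p = 0.407). This can be set beside -0.70 for EZH2, which holds an 8mer and a 7mer-m8 where DNM1L holds 1 match. A median of -0.26 over the 572 tested genes with an 8mer also takes in genes with further matches. The 95% interval of DNM1L ran from 0.804 to 1.04 in ratio.

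FIS1, on chromosome 7 (101239458 to 101252316), had 41.0, 44.6, 43.1 and 43.6 CPM with miR-101, against 51.7, 52.3, 50.9 and 39.0 CPM in the controls. Control replicates 1 to 3 lay above all miR-101 libraries and control replicate 4 below them, the mirror image of MFN2. The log2 fold change was -0.17 ± 0.114 (edgeR adjusted p = 0.412). Without control replicate 4 it was -0.26 ± 0.0824, with an edgeR adjusted p of 0.0813 (range over 19 alternatives 0.00457 to 0.976). MFF, on chromosome 2 (227325151 to 227357836), had 54.6, 55.1, 50.5 and 54.8 CPM with miR-101, against 55.1, 55.4, 60.6 and 60.8 CPM in the controls. Its groups met at 55.1 CPM without overlapping, and miR-101 replicate 3 stood below the other miR-101 libraries. Its log2 fold change was -0.11 ± 0.0903 (edgeR adjusted p = 0.514). The groups thus did not overlap for 2 of the 8 genes, against 15.1% of all tested genes.

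**Figure D2:**
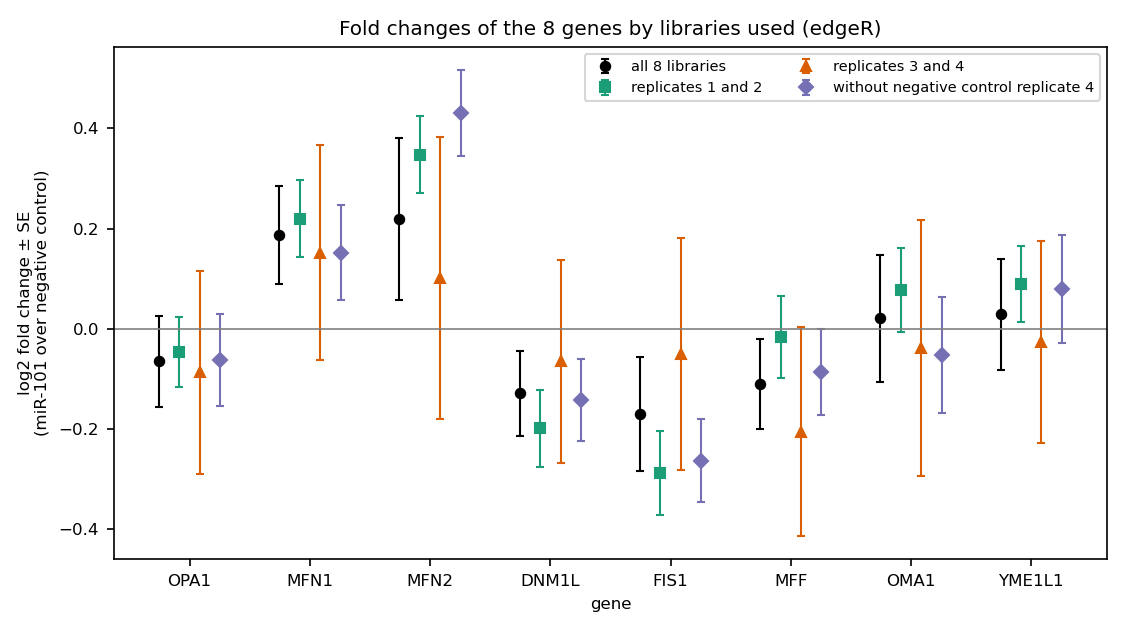
Log2 fold change (y axis, miR-101 over negative control, bars ± SE) of each gene from all 8 libraries, from replicates 1 and 2, from replicates 3 and 4, and without negative control replicate 4. MFN2 moves from 0.22 with all libraries to 0.43 without control replicate 4, and estimates from replicates 3 and 4 have the widest bars.

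In replicates 1 and 2 alone, 4 of the 8 genes passed the edgeR threshold, against 32.4% of all tested genes in that fit. MFN1 (log2 fold change 0.22, edgeR adjusted p = 0.0199) and MFN2 (0.35, edgeR adjusted p = 0.000169) were higher there. DNM1L (-0.20, edgeR adjusted p = 0.0378) and FIS1 (-0.29, edgeR adjusted p = 0.00457) were lower. In replicates 3 and 4 these genes stood at 0.15, 0.10, -0.065 and -0.05 on the log2 scale (edgeR adjusted p = 0.939 to 0.976), and no member was called there, against 0.0379% of all tested genes. The 4 genes kept their sign in both pairs of replicates, as did OPA1 and MFF, which were called in neither pair. OMA1 and YME1L1 changed sign between the pairs. Whether the effects differ between the pairs of replicates was not tested. With the counts of replicates 1 and 2 summed into 1 sample per group, no member was called, against 1.09% of all tested genes.

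Control libraries varied more than miR-101 libraries in 7 of the 8 genes, DNM1L being the exception. The same direction held for 66.8% of 15894 tested genes with a count above 0 in every library, so a wider control spread was common in the table. The median SD of log2 CPM over the 8 genes was 0.0588 with miR-101 and 0.16 in the control, and over all these genes 0.192 and 0.261 in the same order. MFN2 had the widest control spread of the set, an SD of 0.361 on the log2 scale, against 0.052 with miR-101.

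Levels were compared between genes per kilobase of annotated exon, as the mean of all 8 libraries. OPA1 was the most abundant at 52.7 ± 2.85 CPM per kb (SD, n = 8), with every library above every library of the other genes. FIS1 (25.5), MFN2 (21.2), YME1L1 (20.8) and MFN1 (20.3 CPM per kb) formed a middle group whose ranges over libraries overlapped. DNM1L at 15.0 and OMA1 at 12.6 CPM per kb overlapped each other, and MFF was lowest at 9.08 ± 0.549 CPM per kb, below every OMA1 library. The grouping depends on the length used. Per kilobase of the longest transcript YME1L1 came to 37.0 CPM per kb, with every library above every MFN1 and MFN2 library. On that scale DNM1L at 24.6, MFN2 at 23.2, MFN1 at 23.2 and OMA1 at 22.2 CPM per kb had overlapping ranges. OPA1 was highest and MFF lowest with either length.

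Ratios of counts within a library do not depend on scaling between libraries. The MFN1 to MFN2 ratio was 1.17, 1.15, 1.12 and 1.10 with miR-101, against 1.36, 1.18, 1.62 and 0.761 in the controls. The miR-101 libraries agreed closely and the controls spread on both sides of them, with replicates 3 and 4 at opposite ends. The OMA1 to YME1L1 ratio averaged 0.306 ± 0.0257 with miR-101 and 0.309 ± 0.0526 in the control (SD, n = 4 each). The OPA1 to DNM1L ratio was 4.45, 4.54, 4.24 and 4.66 with miR-101, against 4.12, 3.98, 4.59 and 4.43 in the controls, so that the groups overlapped. None of the ratios separated the groups, and no test was made on them.

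**Figure D3:**
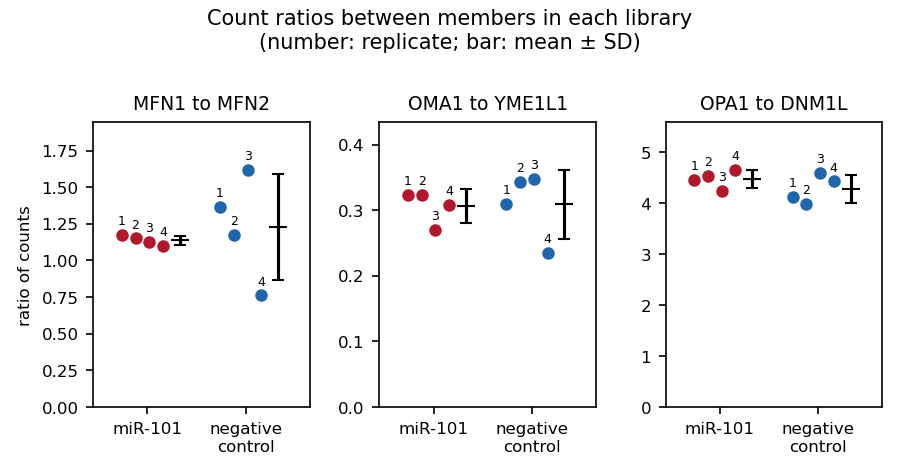
Ratio of counts of MFN1 to MFN2, OMA1 to YME1L1 and OPA1 to DNM1L (y axis, from 0) in each library, miR-101 left and negative control right, with the mean ± SD (n = 4). The MFN1 to MFN2 ratio lies between 1.10 and 1.17 with miR-101 and between 0.761 and 1.62 in the controls.

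The 3 genes outside the set whose profile over the 8 libraries was most like that of MFN1, the member with the smallest p, were MDM1, SUGT1 and U2SURP. Their log2 CPM, centred on each gene's mean, differed from that of MFN1 by 0.0367, 0.0376 and 0.0382 on average over the libraries. Like MFN1, none of them was called (edgeR adjusted p = 0.359, 0.248 and 0.348). A result close to that of MFN1 follows from picking them by their profile in these same libraries.

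Genes that act on the fusion and division machinery did include called genes. Of 60 listed genes in 8 groups, 58 were measured and tested, and MYO19 and PEX11G were not analysed here. By edgeR 6 of the 58 were called, 10.3% against 6.62% of all tested genes. The count has 1 gene higher, where 3.3% of all genes were, and 5 lower, where 3.32% of all genes were. The median log2 fold change of the 58 genes was -0.05, against -0.005 for all tested genes.

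**Figure D4:**
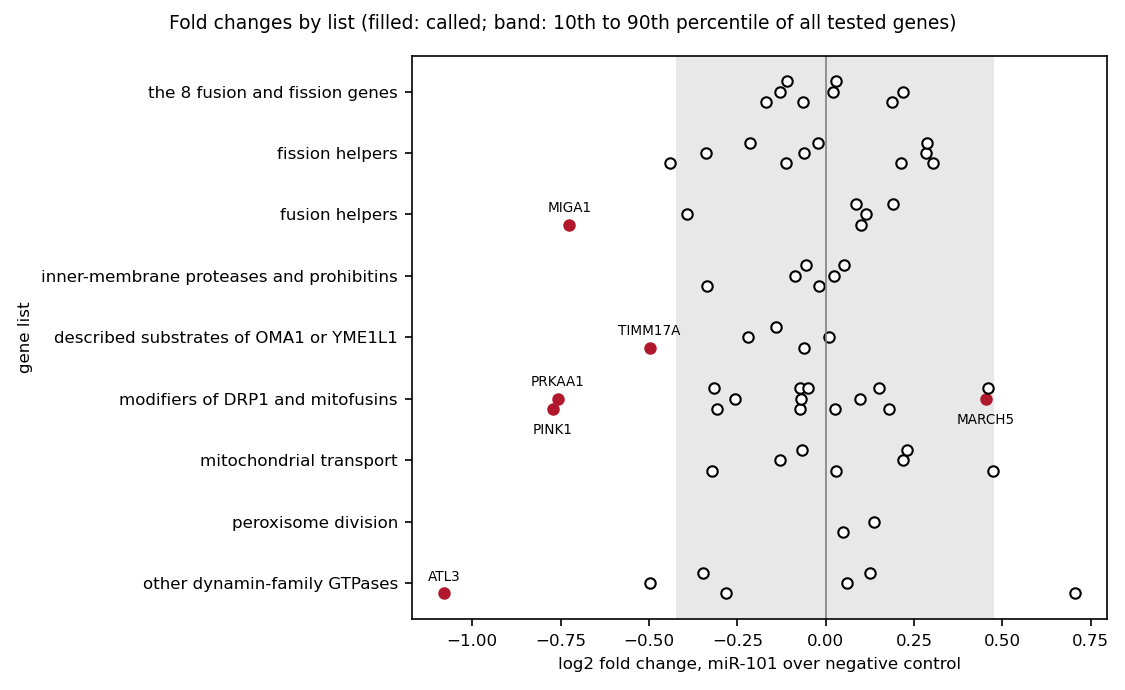
Log2 fold change (x axis, miR-101 over negative control) of each of the 8 fusion and fission genes and of the 58 genes of the other lists (y axis); filled points were called by edgeR and are named, and the grey band holds the 10th to 90th percentile of all tested genes. All 8 fusion and fission genes lie inside the band, while ATL3, MIGA1, PRKAA1, PINK1 and TIMM17A lie to its left.

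Fusion helpers held 1 called gene of 6, against 6.62% of all tested genes. MIGA1 (mitoguardin 1, listed under the older symbol FAM73A), an outer-membrane protein that promotes fusion, had 33.3, 34.5, 41.1 and 39.4 CPM with miR-101, against 61.0, 60.1, 68.3 and 55.9 CPM in the controls. The groups were well apart, and the gene fell to a ratio of 0.605 (log2 fold change -0.73 ± 0.11, edgeR adjusted p = 0.00406). It kept the call in all 8 fits that left out 1 library (highest edgeR adjusted p 0.0214), and lost it with replicates 1 and 2 summed (0.0612) and in replicates 3 and 4 alone (0.484). An 8mer, printed above, and a 7mer-m8 lie in its 3′ UTR. The related MIGA2 (FAM73B) had a log2 fold change of 0.10 (edgeR adjusted p = 0.702), and no match. The stomatin-like scaffold STOML2 stood at 0.11 (edgeR adjusted p = 0.576).

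The list of modifiers of DRP1 and mitofusins held 3 called genes of 15, against 6.62% of all tested genes. PRKAA1, the alpha-1 catalytic subunit of the energy sensor AMPK, whose kinase activity targets MFF, had 99.3, 89.95, 120.3 and 113.6 CPM with miR-101, against 153.8, 164.8, 198.4 and 198.7 CPM in the controls. It fell to a ratio of 0.591 (log2 fold change -0.76 ± 0.129, edgeR adjusted p = 0.00661) and kept the call in all 8 fits without 1 library, but not with replicates 1 and 2 summed (adjusted p = 0.0588) or in replicates 3 and 4 alone (0.33). PRKAA2, the alpha-2 subunit, named here after its values were seen, had a log2 fold change of 0.46 ± 0.164 in the opposite direction (edgeR adjusted p = 0.129, 0.043 with the replicate number as a block, 0.0998 with the replicate set as a term and 0.403 with replicates 1 and 2 summed).

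PINK1, the kinase that marks damaged mitochondria, had 34.5, 39.6, 31.4 and 40.8 CPM with miR-101, against 56.2, 55.2, 47.4 and 91.0 CPM in the controls. It fell to a ratio of 0.585 (log2 fold change -0.77 ± 0.191, edgeR adjusted p = 0.0368), but PINK1-AS on the other strand covers 39.4% of its exon bases and its value is uncertain. MARCH5, the outer-membrane ubiquitin ligase that acts on DRP1 and mitofusins, was the 1 called gene that rose, at 59.5, 58.2, 61.5 and 73.4 CPM with miR-101, against 45.3, 44.0, 49.9 and 45.3 CPM in the controls (ratio 1.37, edgeR adjusted p = 0.0284). PINK1 and MARCH5 lost their calls in each fit that left out a library other than control replicate 3 or 4 (the adjusted p reached 0.109 and 0.0938), and PINK1 also lost its call with library totals as the only scaling (adjusted p = 0.0547, where 6.04% of all genes were called). Fits without 1 library called 3.06%, 3.07%, 4.3% and 5.28% of all genes without miR-101 replicates 1 to 4, and 3.85%, 3.53%, 8.02% and 8.91% without control replicates 1 to 4.

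Described substrates of OMA1 or YME1L1 held 1 called gene of 5, against 6.62% of all tested genes. TIMM17A, an import channel subunit that YME1L1 degrades under stress, had 99.2, 96.8, 88.9 and 120.4 CPM with miR-101, against 146.6, 145.4, 134.6 and 145.7 CPM in the controls. It fell to a ratio of 0.708 (log2 fold change -0.50 ± 0.109, edgeR adjusted p = 0.0222). That call held in 3 of the 8 fits without 1 library, those without miR-101 replicate 4, control replicate 3 or control replicate 4, and the adjusted p reached 0.0842 in the others. DELE1 (KIAA0141), which OMA1 cuts to relay mitochondrial stress, had a log2 fold change of -0.14 (edgeR adjusted p = 0.612), and PGAM5, a mitochondrial phosphatase, -0.06 (edgeR adjusted p = 0.832).

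Among other GTPases of the dynamin family, 1 of 7 was called, against 6.62% of all tested genes. ATL3, an atlastin that fuses membranes of the endoplasmic reticulum, had 92.3, 92.1, 116.9 and 119.7 CPM with miR-101, against 190.1, 186.0, 249.4 and 264.6 CPM in the controls. Every miR-101 library lay far below every control library, and the ratio of 0.473 was the lowest of the 58 genes (log2 fold change -1.08 ± 0.15, edgeR adjusted p = 0.00271). ATL3 kept its call in all 8 fits without 1 library and was the 1 gene of the lists still called with replicates 1 and 2 summed (edgeR adjusted p = 0.0331), but not in replicates 3 and 4 alone (0.153). ATL2 had a log2 fold change of -0.35 (edgeR adjusted p = 0.0994) and ATL1 of -0.50 (edgeR adjusted p = 0.188). MX1, an interferon-induced GTPase, had a log2 fold change of 0.71 ± 0.489 (edgeR adjusted p = 0.428, 0.0429 with the replicate block, 0.0299 with the replicate set as a term and 0.547 with replicates 1 and 2 summed).

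**Figure D5:**
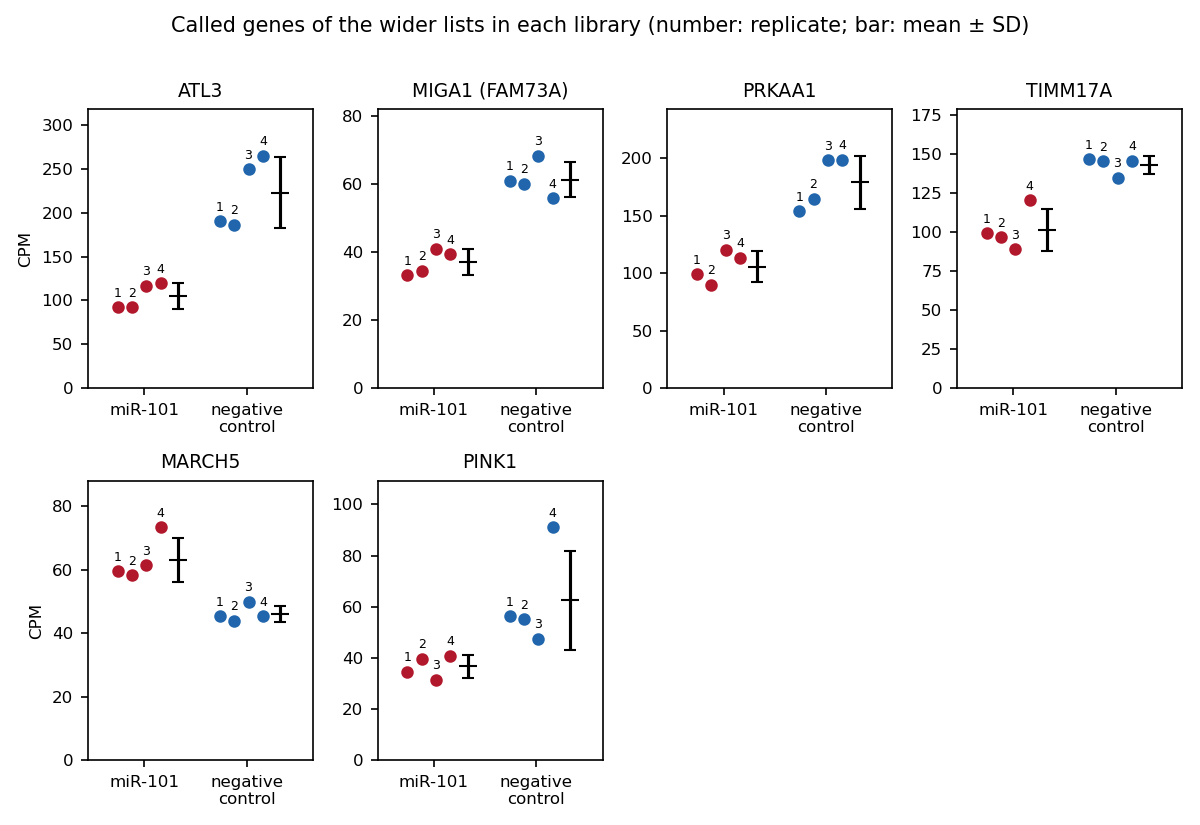
CPM (y axis, from 0) of the 6 called genes of the other lists in each miR-101 library and each negative control library, with replicate numbers and the mean ± SD (n = 4). The groups do not overlap for any of the 6, which were picked by their call in these same libraries. Groups did not overlap for 13 of the 58 listed genes and for 15.1% of all tested genes. MARCH5 is the called gene that is higher with miR-101.

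The remaining lists held no called gene, and for each the member with the smallest p is given. Of 10 fission helpers, 3 had an unadjusted p under 0.05, near the 22.3% of all tested genes, and INF2, a formin that builds actin at division sites, had a log2 fold change of -0.44 ± 0.169 (edgeR adjusted p = 0.152). The DRP1 receptor MIEF1 stood at -0.34 ± 0.179 (edgeR adjusted p = 0.297) and its relative MIEF2 at -0.06 (edgeR adjusted p = 0.849). Of 6 inner-membrane proteases and prohibitins, PARL, the rhomboid protease that cuts PINK1, had -0.34 ± 0.127 (edgeR adjusted p = 0.146), with 47.2% of its exon bases shared with a gene on the same strand. With the replicate set as a term PARL was called (-0.34, edgeR adjusted p = 0.0326), as were KIF5B, a kinesin motor of the transport list (-0.33, edgeR adjusted p = 0.0441), and ATL2 (-0.35, edgeR adjusted p = 0.0425). AFG3L2, a relative of YME1L1, stood at -0.02 ± 0.091 (edgeR adjusted p = 0.932). Of 7 transport genes TRAK2, an adaptor of mitochondrial motors, had 0.22 ± 0.0924 (edgeR adjusted p = 0.19), and of 2 peroxisome division genes PEX11A had 0.14 ± 0.248 (edgeR adjusted p = 0.797). DESeq2 and limma-voom each called the same 6 genes of the 58 as edgeR.

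Seed matches were counted in the same lists. Of the 5 called genes that fell, 4 held a match in the longest 3′ UTR and 3 an 8mer (MIGA1, PRKAA1 and TIMM17A), while PINK1 had none. Over all tested genes with an annotated 3′ UTR, 23.8% held a match and 4.6% an 8mer. The share among all genes called lower was not counted. Of the 52 genes that were not called, 11 held a match and 1, KIF5B, an 8mer. KIF5B was called with the replicate set as a term and in replicates 1 and 2 alone. Those fits called 11.7% and 32.4% of all tested genes. PARL, ATL2 and MX1, which held no match in the longest 3′ UTR, were called in both fits as well. MARCH5 held no match. The median log2 fold change of all tested genes was -0.26 with an 8mer, -0.10 with a 7mer-m8 as best match and -0.01 without a match. With a 7mer-A1 as best match, the largest of the matched classes at 1371 genes, it was 0.003. No test was made on these counts.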

How the data were processed

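The authors deposited whole-number read counts per gene symbol, not normalised. The submitters' processing notes name hg38 and the tools StringTie 1.2.4, TopHat2 2.0.14 and bcl2fastq 2.18.0.12. For the counting step, its gene annotation and its strand setting, the sources used here give nothing. Library preparation followed the Ribo-zero Gold protocol, per the labels. All 8 count columns were matched to samples by their description labels, and groups were taken from the titles. The labels describe 4 transfections of 1 cell line; p-values measure the spread between these libraries, which may be partly technical.

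Counts were tested with edgeR 4.0.16 (R 4.3.3, limma 3.58.1): filterByExpr, TMM factors, glmQLFit and glmQLFTest, group as the only term, Benjamini-Hochberg adjustment over 15905 genes, called at an adjusted p under 0.05. Standard errors are the log2 fold change over the root of the quasi-F, and intervals are 95% t intervals with edgeR's total degrees of freedom. Steps were tested on simulated data. Alternatives were DESeq2 1.42.0, limma-voom, other scalings and filters, a replicate block, a term for replicates 1 and 2 against 3 and 4, library subsets and leaving out each library. Deviations of same-numbered libraries from their group means correlated at 0.379, 0.526, 0.204 and 0.203 over genes. Libraries with different numbers were not compared in this way, so whether the numbers pair the samples was not tested. The block left all 8 members uncalled but raised the count over all genes from 1053 to 1676.

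Loci, exon lengths and 3′ UTRs are from GENCODE 29 (GRCh38); 14026 tested symbols matched by name and 320 by an older or newer name (RefSeq synonyms or hand-listed). The members, lists and tests were chosen with earlier results of these data known. Named genes are the 8 members; in each wider list the called genes (up to 4 by p) or, failing those, the gene with the smallest p; the 3 genes most like the member with the smallest p; and EZH2. Others named beside them (PRKAA2, MIGA2, STOML2, DELE1, PGAM5, ATL1, ATL2, MX1, MIEF1, MIEF2, AFG3L2 and KIF5B) were chosen after their values were seen. Some genes of the wider lists are not reported here and were left out of the list counts.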

Additional observations from a re-analysis of the deposited data

Results flagged for a closer look

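In 50 groups of 4 libraries, those of the named genes and ratios, 6 held a library whose gap to its nearest neighbour took a larger part of the group's range than Dixon's 95% critical value for 4 samples, where chance gives about 1 in 20. MFN2 stood at 137.7 CPM in control replicate 4, against 79.5 to 88.0 CPM in the other controls. FIS1 stood at 38.95 CPM in control replicate 4, against 50.9 to 52.3 CPM in the others. INF2 stood at 32.1 CPM in control replicate 4, against 19.9 to 21.4 CPM in the others. MFF stood at 50.5 CPM in miR-101 replicate 3 (others 54.6 to 55.1 CPM) and TRAK2 at 89.98 CPM in miR-101 replicate 3 (others 101.1 to 102.7 CPM). TIMM17A stood at 134.6 CPM in control replicate 3, against 145.4 to 146.6 CPM in the other controls.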

How the results depend on the processing

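The log2 fold changes of OPA1, MFN1, MFN2, DNM1L, FIS1 and MFF kept their sign in all 19 alternatives. OMA1 and YME1L1 turned to -0.0384 and -0.0262 in replicates 3 and 4 alone, and ranged from -0.0528 to 0.14 and from -0.032 to 0.0797 in fits without 1 library. In replicates 1 and 2 alone MFN1 (0.22), MFN2 (0.348), DNM1L (-0.198) and FIS1 (-0.287) were called; the cause was not tested. In fits without 1 library the value for MFN2 ranged from 0.128 to 0.431. The count of members called was 4 in replicates 1 and 2 alone and 0 to 1 without 1 library. The count over the wider lists, 6 in all libraries, was 10 with the replicate set as a term, 19 in replicates 1 and 2, 0 in replicates 3 and 4 (6 genes called in all), 1 with replicates 1 and 2 summed, and 3 to 7 without 1 library. Over all genes, 1053 became 1706 in DESeq2, 1676 with the replicate block, 1864 with the replicate set as a term, 5126 in replicates 1 and 2, 6 in replicates 3 and 4, 173 with replicates 1 and 2 summed, and 488 to 1419 without 1 library. Apart from PRKAA2 and MX1, the replicate block changed no call in the lists (8 called). Per kilobase of the longest transcript the levels were 73.5 (OPA1), 45.5 (FIS1), 37.0 (YME1L1), 24.6 (DNM1L), 23.2 (MFN1), 22.2 (OMA1) and 15.85 CPM per kb (MFF). The leave-one-out values of the ratios were added after the data were seen and moved by less than 1 SD of the control.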
